A study of Homo sapiens with 6 samples.

Results

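The transcripts described are those of 6 receptors of the SIGLEC family (sialic acid-binding immunoglobulin-like lectins), namely SIGLEC1, CD33, SIGLEC5, SIGLEC7, SIGLEC9 and SIGLEC10. They were chosen by name, and all 6 were found among the 12301 genes listed in both deposited count tables. Either table listed 13289 genes in all. The cells were NB4, an established human acute promyelocytic leukemia line that can be driven toward mature granulocytes with all-trans retinoic acid (ATRA). The study used RNA-seq to ask what knockdown of SMARCD2, a subunit of the BAF chromatin remodelling complex, changes in these cells with and without that stimulus.

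The 6 libraries fall into 4 groups. SMARCD2 knockdown cells in ATRA gave 2 libraries, 1 for each of 2 short hairpins, and control cells in ATRA gave 1 library. Knockdown cells in DMSO, the vehicle, likewise gave 2 libraries with the same hairpins, and control cells in DMSO gave 1. ATRA was used at 1 µM. How long the cells were treated is not stated in the labels. All groups are NB4 cells with a construct, each group holds at most 1 library per construct, and the labels do not say whether libraries came from separate cultures, so p-values measure only the spread between these libraries.

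SIGLEC receptors bind sialic acid, the sugar that caps many glycans on cell surfaces and secreted proteins. Most members carry tyrosine motifs in their cytoplasmic tail that recruit the phosphatases encoded by PTPN6 and PTPN11 and so dampen activating signals. A few members instead pair with the adaptor encoded by TYROBP and activate. CD33 is a classical surface marker of myeloid cells and a target of antibody therapy in acute myeloid leukemia, SIGLEC5 and SIGLEC9 are found on neutrophils and monocytes, SIGLEC7 on natural killer cells and monocytes, and SIGLEC10 on B cells and monocytes. SIGLEC1 (sialoadhesin, CD169) is a long receptor of macrophages that lacks the inhibitory tail motifs and is known as an interferon-induced gene.

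The libraries held between 29291209 and 58099733 counts. SMARCD2 itself stood at 64.2 and 35.6 CPM (counts per 1000000 counts of the library, scaled by TMM) with hairpins 1 and 2 in ATRA, against 122 CPM in the control, while in DMSO it stood at 39 and 25.7 CPM, against 95.5 CPM in its control, so the targeted transcript was lowered in part and not removed. Promyelocyte markers, led by MPO, summed to between 4610 and 6290 CPM in ATRA and between 10100 and 10400 CPM in DMSO. That sum is nearly all MPO, and PRTN3 went against it, at 349, 411 and 232 CPM in ATRA and 54.7, 75.3 and 37.0 CPM in DMSO. Neutrophil maturation markers summed to between 1020 and 1160 CPM in ATRA, where 5 were listed (ITGAM, FCGR3B, CSF3R, CXCR2, LTF). In DMSO only 2 were listed (ITGAM, CSF3R), with sums between 166 and 167 CPM. Those 2 also made up nearly all of the sum in ATRA, where FCGR3B was at most 11.2 CPM and LTF at most 4.88 CPM. Of 10 monocyte and macrophage markers, 5 were listed in the ATRA table and 2 in the DMSO table, with sums of 265 to 286 CPM and 333 to 367 CPM, while CD163, MSR1, C1QA, C1QB and C1QC were listed in neither. CSF1R set that lower sum in ATRA (195, 181 and 198 CPM against 350, 314 and 344 CPM in DMSO), whereas CD68 was at 78.8, 77.8 and 82.4 CPM in ATRA against 16.4, 19.2 and 16.9 CPM in DMSO, and CD14 was listed for ATRA alone, at 3.92 to 5.31 CPM. B cell markers summed to 36.7 to 37.1 CPM in ATRA, nearly all from CD79A, and 3.12 to 3.86 CPM in DMSO, with MS4A1 in neither table. T and NK cell markers summed to 22.3 to 36.9 CPM in ATRA and 43.5 to 76.9 CPM in DMSO, with KLRD1 in neither. Stromal markers summed to 6.13 to 8.4 CPM and 1.19 to 1.32 CPM, and none of 3 erythroid markers was listed. Maturation markers thus moved with ATRA alongside the receptors described below, and their part in those differences was not tested. In such bulk libraries a change in the share of cells that carry a transcript and a change in the transcript per cell cannot be told apart.

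The comparison of ATRA with DMSO over the constructs (n = 3 against 3) asked how the receptors respond to the differentiation stimulus. All 6 receptors were higher in ATRA by edgeR's quasi-likelihood test without a term for the hairpin (Benjamini-Hochberg adjusted p under 0.05), but by very different amounts. SIGLEC1 went up by 910-fold in the fit, SIGLEC10, SIGLEC7 and SIGLEC5 by between 3.54-fold and 7.82-fold, and CD33 by 1.17-fold. SIGLEC9 was scarce and its call was not secure. With a term for the hairpin it was lost and 5 receptors were called. Of all 12301 genes 74.0% were called in this comparison, 36.2% as higher and 11.9% as higher by at least 2-fold, so a call alone says little here and the sizes matter more. The median log2 fold change was 1.97 over the 6 receptors and -0.01 over all genes.

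SIGLEC1 was the receptor with the widest range. It stood at 406 and 438 CPM with hairpins 1 and 2 and 311 CPM in control cells in ATRA, against 0.265, 0.638 and 0.454 CPM in DMSO. All ATRA libraries lay far above all DMSO libraries, whose values rest on 16, 28 and 14 counts, against 19774, 18729 and 8789 counts in ATRA. The log2 fold change was 9.83 ± 0.15 (SE; 95% interval 9.48 to 10.18; adjusted p = 9.1e-10), ranked 2 among the 12301 genes. Taken construct by construct, the ratio of ATRA to DMSO was 1530 with hairpin 1, 687 with hairpin 2 and 686 in the control. The higher ratio with hairpin 1 went with its DMSO library holding the lowest CPM.

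SIGLEC10, an inhibitory receptor known to bind CD24 and CD52, came next. It stood at 68.4, 75.9 and 73.4 CPM in ATRA (hairpin 1, hairpin 2, control) against 8.54, 8.87 and 10.7 CPM in DMSO. The groups were far apart and the spread within each was small, with a log2 fold change of 2.97 ± 0.08 (adjusted p = 1.2e-08). Of the 50-base windows in its longest coding transcript 7.16% also occur in transcripts of other genes, mostly SIGLEC16. That search did not cover genes overlapping on the opposite strand. An antisense gene, SIGLEC10-AS1, overlaps it, and whether counting used strand is not stated in the labels, so reads of these 2 genes cannot be told apart.

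SIGLEC7, an inhibitory receptor that prefers disialylated glycans, stood at 13.2, 11.3 and 12.9 CPM in ATRA against 2.99, 2.69 and 2.92 CPM in DMSO. These values barely varied between constructs within a treatment. The log2 fold change was 2.12 ± 0.12 (adjusted p = 6.9e-07), or 4.34-fold.

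SIGLEC5 (CD170), an inhibitory receptor, stood at 54.2, 48.1 and 48.4 CPM in ATRA against 13.5, 15.7 and 13.6 CPM in DMSO. The groups did not overlap, and the log2 fold change was 1.82 ± 0.08 (adjusted p = 1.6e-07). The value is uncertain because 82.2% of the 50-base windows of the longest SIGLEC5 coding transcript also occur in other annotated genes. Most of that is the annotated gene AC018755.2, which holds 81.2% of them, and 29.3% occur in SIGLEC14, the activating paralog, which pairs with the TYROBP adaptor. In turn, 33.4% of SIGLEC14 windows occur in SIGLEC5, so the authors' counting could have split or dropped reads of either gene. SIGLEC14 moved the same way, at 36.1, 32.1 and 34.1 CPM in ATRA against 5.52, 7.95 and 6.04 CPM in DMSO (log2 fold change 2.40 ± 0.13, adjusted p = 6.1e-07).

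The likeness of these paralogs reaches into their promoters. The 250 bases upstream of each annotated start are shown because both genes rose and share this sequence, with the run of 113 bases that is identical between them in capitals (RefSeq, GRCh38.p14, both on the minus strand, SIGLEC5 at chr19:51630402-51630651 and SIGLEC14 at chr19:51646826-51647075).
SIGLEC5: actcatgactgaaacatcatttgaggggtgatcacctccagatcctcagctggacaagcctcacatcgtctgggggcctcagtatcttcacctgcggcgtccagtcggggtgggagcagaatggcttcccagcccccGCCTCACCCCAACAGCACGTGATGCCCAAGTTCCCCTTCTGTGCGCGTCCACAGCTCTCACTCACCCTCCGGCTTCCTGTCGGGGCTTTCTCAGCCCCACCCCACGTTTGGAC
SIGLEC14: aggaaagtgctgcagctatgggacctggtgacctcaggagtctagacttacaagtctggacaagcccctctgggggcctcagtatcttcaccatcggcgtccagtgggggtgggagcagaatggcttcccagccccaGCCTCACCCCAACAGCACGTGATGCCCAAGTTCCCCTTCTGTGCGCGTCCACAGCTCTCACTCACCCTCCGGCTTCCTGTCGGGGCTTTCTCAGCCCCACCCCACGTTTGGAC
The shared run ends at the start site in both windows. No other pair among the SIGLEC windows compared shared more than 26 bases, the length found between CD33 and SIGLEC12.

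CD33 changed least. It stood at 61.6, 58.6 and 54.6 CPM in ATRA against 47.8, 49.4 and 52.3 CPM in DMSO. The lowest ATRA library, the control, lay just above the highest DMSO library, also the control. The log2 fold change was 0.23 ± 0.06 (95% interval 0.08 to 0.37; adjusted p = 0.01). The call did not hold when libraries were scaled to their total counts (log2 fold change 0.10, adjusted p = 0.19) or without hairpin 1 in ATRA (0.18, adjusted p = 0.055). Scaling to totals moved the all-gene median by -0.13 and turned the overall split of 4450 higher and 4650 lower genes into 3637 and 5722.

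SIGLEC9 was the scarcest receptor in ATRA. It stood at 1.99, 1.05 and 1.7 CPM in ATRA (97, 45 and 48 counts) against 0.813, 1.21 and 0.487 CPM in DMSO (49, 53 and 15 counts). The groups overlapped, since hairpin 2 was lower in ATRA than in DMSO while hairpin 1 and the control were higher. The log2 fold change was 0.91 ± 0.35 (95% interval 0.10 to 1.72; adjusted p = 0.044). It was 0.89 (adjusted p = 0.053) in a fit with a hairpin term, 0.78 (0.07) with library totals, 0.87 (0.054) with limma-voom and 0.71 (0.2) from run 2 alone. Leaving out hairpin 1 in ATRA (0.69, adjusted p = 0.2), the control in ATRA (0.62, 0.17), hairpin 1 in DMSO (0.83, 0.13) or the control in DMSO (0.62, 0.17) also ended the call.

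**Figure D1:**
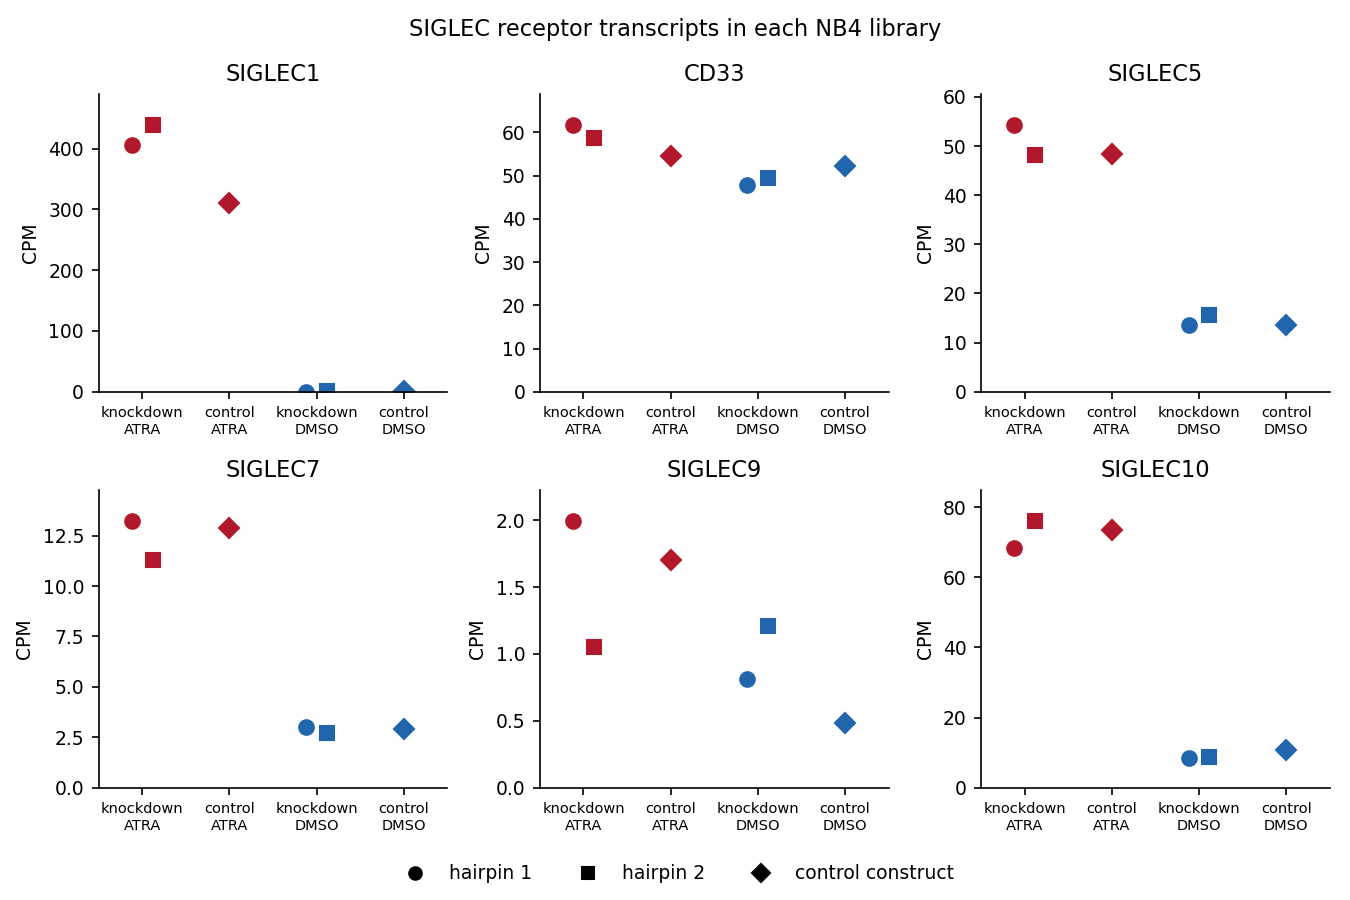
CPM (TMM-scaled, linear axes from 0) of each receptor in each of the 6 libraries, ATRA in red and DMSO in blue, 1 point per library. SIGLEC1, SIGLEC5, SIGLEC7 and SIGLEC10 separate widely by treatment, CD33 lies between 47.8 and 61.6 CPM throughout, and SIGLEC9 overlaps between treatments.

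Set against transcript length, the order of the receptors changed with treatment. In CPM per kb of annotated exon, SIGLEC1 led in ATRA at 57.3 ± 9.81 (mean ± SD, n = 3), followed by CD33 at 24.6 ± 1.49. SIGLEC10 at 21.4 ± 1.14 and SIGLEC5 at 21.3 ± 1.45 CPM per kb followed with ranges that overlapped, so those neighbours could not be ordered. SIGLEC7 at 7.13 ± 0.577 and SIGLEC9 at 0.665 ± 0.202 CPM per kb were lowest. In DMSO the level of CD33 led at 21.0 ± 0.979 CPM per kb, followed by SIGLEC5 at 6.03 ± 0.526, SIGLEC10 at 2.76 ± 0.339, SIGLEC7 at 1.64 ± 0.0891, SIGLEC9 at 0.351 ± 0.152 and SIGLEC1 at 0.0674 ± 0.0277. No neighbouring ranges overlapped in DMSO. SIGLEC1 was thus the lowest of the 6 in DMSO and the highest in ATRA, while CD33 was first and then second at a nearly level value.

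**Figure D2:**
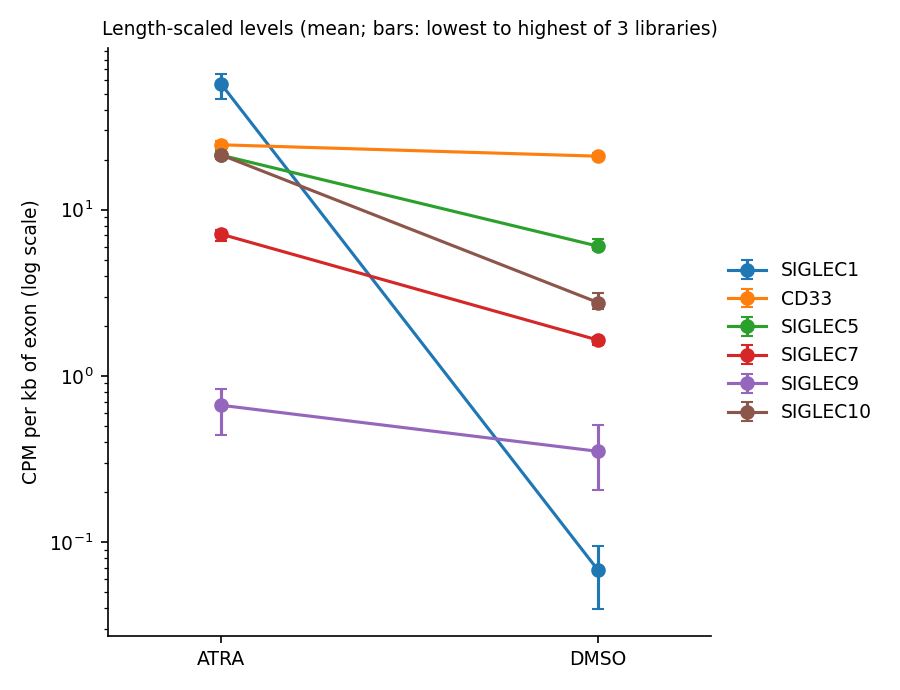
Mean CPM per kb of exon (log axis) of each receptor in ATRA (left) and DMSO (right), with bars from the lowest to the highest of 3 libraries. The SIGLEC1 line crosses all the others, at 57.3 in ATRA and 0.0674 in DMSO, and the CD33 line is nearly flat.

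Promoter windows of both ends of the range are shown for contrast, that of CD33, the receptor that changed least, and that of SIGLEC10, the receptor with the largest fold change among those with an entry, since SIGLEC1 had none in the promoter table. Both are the 250 bases upstream of the annotated start (RefSeq, GRCh38.p14, CD33 on the plus strand at chr19:51224830-51225079, SIGLEC10 on the minus strand at chr19:51417643-51417892). Capitals mark the PU box, GAGGAA on either strand, the core bound by the myeloid factor PU.1.
CD33: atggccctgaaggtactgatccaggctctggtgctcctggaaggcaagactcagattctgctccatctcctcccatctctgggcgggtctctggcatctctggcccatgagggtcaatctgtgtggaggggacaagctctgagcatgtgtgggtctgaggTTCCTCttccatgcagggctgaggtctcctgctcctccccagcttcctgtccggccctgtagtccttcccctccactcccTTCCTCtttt
SIGLEC10: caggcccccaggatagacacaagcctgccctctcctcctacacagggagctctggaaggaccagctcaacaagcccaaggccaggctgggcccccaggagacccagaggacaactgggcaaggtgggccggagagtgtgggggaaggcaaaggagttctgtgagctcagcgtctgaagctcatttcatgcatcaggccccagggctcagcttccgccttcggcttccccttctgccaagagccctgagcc
CD33 held the PU box at positions -90 and -10 from the start and SIGLEC10 held none. The window is a description of letters only.

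Over the 5 receptors with a window, CD33 and SIGLEC9 held the PU box, which 23.6% of all 35116 windows of that length hold. SIGLEC7 also held it, at position -135, but its window appears to reach into coding sequence. After that box come an ATG and codons without a stop to the end of the window. A run of 16 bases lies at -191 in the SIGLEC7 window but at -33 in a SIGLEC9 window. The SIGLEC7 box may therefore lie in transcribed sequence and is not counted as a promoter match. The nuclear receptor core AGGTCA, the kind of element that retinoic acid receptors bind in pairs, was in 2 (SIGLEC7, SIGLEC9), against 12.1% of all windows. In SIGLEC7 it lay at -218 and -206, upstream of the run of 16 bases. The shares over all windows leave out no window for reaching into coding sequence, so they are not fully like the receptor counts. The SIGLEC7 window may also cover fewer upstream bases than the others. The C/EBP site TTGCNNAA (9.05% of all windows) and the interferon-stimulated response element (3.02%) were in none. All motifs were searched on both strands, and no matches overlapped in the windows of these receptors.

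Among the other genes of the family list, 3 of the 4 in both tables were higher in ATRA and 1 was lower. Over all genes 36.2% were higher and 37.8% lower. SIGLEC12, whose human protein has lost the conserved arginine needed to bind sialic acid, stood at 58.5, 58.5 and 48.0 CPM in ATRA against 5.21, 6.54 and 4.45 CPM in DMSO. Its log2 fold change of 3.36 ± 0.09 (adjusted p = 1.2e-08) was the largest among the tested SIGLEC genes of chromosome 19. SIGLEC8, known from eosinophils and mast cells, was at 1.4, 2.11 and 1.77 CPM in ATRA against 0.912, 0.798 and 1.07 CPM in DMSO (0.93 ± 0.24, adjusted p = 0.0073; 0.86 and 0.088 from run 2 alone). SIGLEC6, known from placental trophoblast and mast cells, went the other way. It stood at 4.39, 5.13 and 6.66 CPM in ATRA against 12.3, 14.6 and 9.35 CPM in DMSO, a log2 fold change of -1.19 ± 0.20 (adjusted p = 0.00071). SIGLECL1, a SIGLEC-like gene that was not on the list and is named after its values were seen, had 14, 6 and 20 counts in ATRA and 27, 15 and 17 in DMSO and was not called (-0.41 ± 0.42, adjusted p = 0.41).

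CD22, SIGLEC11 and SIGLEC16 were present in the ATRA table alone, and no fold change is given for them. CD22, the B cell receptor of the family, stood at 11.0, 10.8 and 10.3 CPM there (hairpin 1, hairpin 2, control), SIGLEC11 at 7.39, 8.99 and 5.78 CPM and SIGLEC16 at 6.81, 8.71 and 5.95 CPM. SIGLEC11 and SIGLEC16 are near-identical copies in part, with 25.6% of SIGLEC11 windows also in SIGLEC16, so their counts are uncertain. MAG and SIGLEC15 were listed in neither table.

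Apart from SIGLEC1 on chromosome 20, these genes lie on chromosome 19, where SIGLEC9, SIGLEC7, CD33, SIGLECL1, SIGLEC10, SIGLEC8, SIGLEC12, SIGLEC6, SIGLEC5 and SIGLEC14 lie in that order. Neighbours did not move as a block. CD33 at 0.23 and SIGLECL1 at -0.41 sit between SIGLEC7 at 2.12 and SIGLEC10 at 2.97, and SIGLEC6 at -1.19 sits between SIGLEC12 at 3.36 and SIGLEC5 at 1.82 (log2 fold changes).

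**Figure D3:**
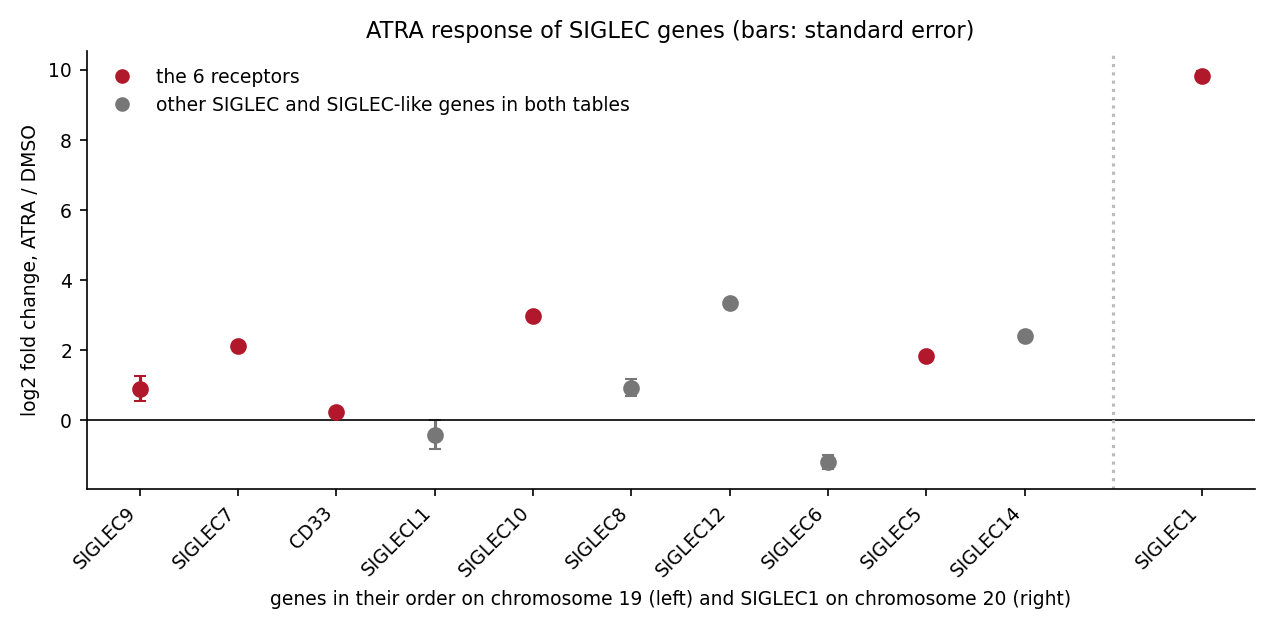
Log2 fold change of ATRA over DMSO with its standard error for the SIGLEC and SIGLEC-like genes listed in both tables, in gene order on chromosome 19 with SIGLEC1 of chromosome 20 set apart, the 6 receptors in red. CD33 at 0.23 and SIGLECL1 at -0.41 stand below SIGLEC7 and SIGLEC10 on either side, SIGLEC6 stands lowest at -1.19, and SIGLEC1 at 9.83 stands above all.

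Signalling partners of the receptors were mostly higher. Of 14 such genes, 11 were higher in ATRA, 1 was lower and 2 were not called, where 36.2% of all genes were higher and 37.8% lower, so the share called in either direction is near the 74.0% of all genes. The median log2 fold change was 1.08 (all genes -0.01). FGR, a SRC family kinase gene of the kind whose products phosphorylate such tail motifs, had 8.77 ± 0.11. It stood at 709, 618 and 797 CPM in ATRA against 1.71, 1.53 and 1.49 CPM in DMSO. TYROBP, the activating adaptor, had 3.37 ± 0.11, at 68.4, 69.2 and 65.7 CPM in ATRA against 5.79, 7.93 and 6.1 CPM in DMSO. SOCS3, a feedback inhibitor of cytokine signalling that binds phosphorylated tails of some SIGLEC receptors, had 2.42 ± 0.18. Among partners named after their values were seen, the phosphatase gene PTPN6 had 1.84 ± 0.06 (adjusted p = 2.6e-08), and its relative PTPN11 had 0.08 ± 0.04 (adjusted p = 0.1). The lipid phosphatase gene INPP5D was the lower one at -0.78 ± 0.05 and the ubiquitin ligase gene CBLB the other not called, at 0.18 ± 0.09. With library totals FES was no longer called (0.17, adjusted p = 0.095), and DESeq2 called PTPN11 higher.

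Genes for known ligands were mixed. Of 6 tested, 4 were higher and 2 lower, with a median of 1.86 (all genes 36.2% higher, 37.8% lower, median -0.01). CD52, a small glycoprotein that in its soluble form binds SIGLEC10, stood at 46.1, 43.2 and 46.2 CPM in ATRA against 1.48, 1.8 and 1.49 CPM in DMSO (4.83 ± 0.10). LGALS3BP, a secreted glycoprotein bound by several family members, had 3.45 ± 0.07. CD24, another SIGLEC10 ligand, stood at 9.42, 10.5 and 9.0 CPM in ATRA against 0.597, 1.37 and 1.17 CPM in DMSO (3.26 ± 0.26). SIGLEC10, CD52 and CD24 were therefore higher in the same libraries, whereas HMGB1 of the same list, given below, was lower. VIM, an intermediate filament gene, was lower at -2.76 ± 0.20, with 159, 120 and 239 CPM in ATRA against 1090, 1270 and 1040 CPM in DMSO. The others, named after their values were seen, were SPN at 0.46 ± 0.04 and HMGB1 at -0.26 ± 0.05, and MUC1 was listed only in the DMSO table.

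The enzymes that make, attach and remove sialic acid moved in both directions and by less. Of 6 genes for its synthesis and transport, 3 were higher and 3 lower, against 36.2% and 37.8% of all genes (median 0.10; -0.03 with library totals). GNE, the rate-limiting enzyme of the pathway, had -0.60 ± 0.07, at 16.1, 17.6 and 15.7 CPM in ATRA against 24.1, 26.3 and 24.4 CPM in DMSO. The phosphatase gene NANP had -0.71 ± 0.09, whereas NANS, the synthase between these steps, had 0.55 ± 0.05 and CMAS, which activates the sugar, had 0.45 ± 0.06. The transporter genes, named after their values were seen, had 0.43 ± 0.06 (SLC35A1, of the Golgi) and -0.23 ± 0.08 (SLC17A5, of the lysosome). SLC17A5 was not called from run 2 alone (-0.20, adjusted p = 0.11).

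Of 20 sialyltransferase genes 12 were tested, and 5 were higher, 4 lower and 3 not called (median 0.04). The shares over all genes were 36.2% higher and 37.8% lower. The largest changes were in scarce transcripts. ST6GALNAC2 had -1.63 ± 0.25, ST6GALNAC3 had 1.56 ± 0.45 and ST6GALNAC4 had -0.96 ± 0.14, all of which add sialic acid to N-acetylgalactosamine-type cores, and none exceeded 5.32 CPM in any library. ST3GAL3 had -0.56 ± 0.08, at 27.1, 31.1 and 28.5 CPM in ATRA against 38.8, 44.2 and 45.4 CPM in DMSO. The ST6GALNAC3 call was lost without hairpin 1 in ATRA (1.26, adjusted p = 0.076) or without hairpin 1 in DMSO (1.304, 0.06). With library totals the list gave 3 higher and 5 lower and a median of -0.09, because ST3GAL6 and ST8SIA4 lost their calls and ST3GAL1 gained one.

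Of 6 tested genes for sialidases and sialic acid editing, 2 were higher, 3 lower and 1 not called (median -0.19; 0.01 from run 2 alone). Among all genes 36.2% were higher and 37.8% lower. CTSA, the protective protein of the lysosomal sialidase complex, had 1.07 ± 0.07, and CASD1, which adds acetyl groups to sialic acid, had 0.46 ± 0.06. The sialidase genes NEU3, of the plasma membrane, and NEU4 had -0.47 ± 0.11 and -1.41 ± 0.46. NEU4 was at most 1.05 CPM in any library, and its call was lost without hairpin 2 in DMSO (-1.26, adjusted p = 0.07). Its value was -2.03 without hairpin 1 in ATRA and -0.92 without hairpin 2 in ATRA. The lyase gene NPL, at -0.39 ± 0.10, and the esterase gene SIAE, at 0.02 ± 0.20 and not called, were named after their values were seen. NPL was not called from run 2 alone (-0.28, adjusted p = 0.094).

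All 8 genes of the type I interferon signalling list, chosen because SIGLEC1 is known to respond to that pathway, were higher, against 36.2% of all genes (median 1.45, all genes -0.01). STAT2 had 2.63 ± 0.07, IRF7 1.75 ± 0.09 and the receptor gene IFNAR2 1.49 ± 0.05. STAT2 stood at 470, 460 and 483 CPM in ATRA against 71.5, 84.3 and 73.0 CPM in DMSO.

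**Figure D4:**
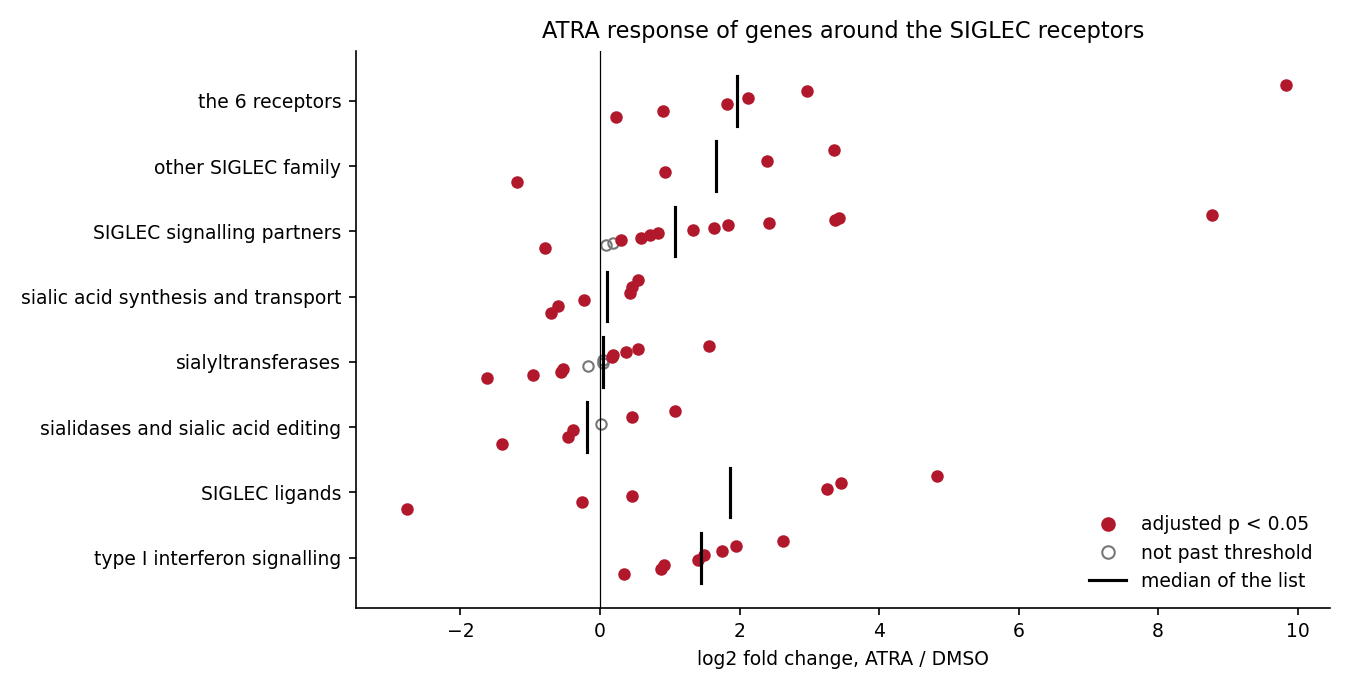
Log2 fold change of ATRA over DMSO for each tested gene of the 6 receptors and of 7 lists, filled where the adjusted p is under 0.05, with the list median as a bar. Receptors, signalling partners, ligands and interferon signalling genes lie mostly to the right of 0, and the sialic acid enzyme lists lie around 0.

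Knockdown was compared with control in ATRA to ask whether lowering SMARCD2 alters the receptors in differentiating cells (n = 2 against 1). SIGLEC1 was higher with both hairpins, at 406 and 438 CPM against 311 CPM in the control, a log2 fold change of 0.44 ± 0.12 (95% interval 0.17 to 0.71; unadjusted p = 0.0058, adjusted p = 0.34, edgeR). It did not pass this test, which holds no hairpin term. With a hairpin term, which pairs the treatments and leaves out the spread between constructs, the value was 0.44 and SIGLEC1 was called. A gene's own spread in that fit comes only from how the 2 hairpins differ between treatments, since no control is replicated. The authors' deposited table lists 0.37 with an adjusted p of 1.4e-05, in a test that may have counted sequencing runs as replicates. SIGLEC12 was likewise at 58.5 CPM with each hairpin against 48.0 CPM in the control (0.28 ± 0.12, adjusted p = 0.44; 0.26 and 0.019 in the authors' deposited table). For SIGLEC1 and SIGLEC12 the deposited values lay near those of the edgeR fit. For SMARCD2 in ATRA the deposited value was -0.40, against -1.29 in the edgeR fit, and why they differ was not tested.

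The other receptors differed by less. CD33 stood at 61.6 and 58.6 CPM with the hairpins against 54.6 CPM in the control (0.14 ± 0.07, 95% interval -0.04 to 0.31, adjusted p = 0.53). SIGLEC5 had 0.08 (-0.19 to 0.35), SIGLEC7 -0.07 (-0.47 to 0.33) and SIGLEC10 -0.02 (-0.23 to 0.18), each with hairpins on either side of the control. SIGLEC9 had -0.15, with an interval of -1.24 to 0.94 that leaves room for a 2-fold difference. Of the 6 receptors, 0 were called by edgeR, against 0.00813% of all genes (1 gene). At an unadjusted p under 0.05 there were 1329 genes, among them 1 receptor, SIGLEC1, and over all genes DESeq2 called 54 and limma-voom 1. Both hairpins lay above the control for SIGLEC1 and CD33, as they did for 39.2% of all genes, and below it for 0 of the 6, against 37.4% of all genes. SMARCD2 itself was not called by edgeR in ATRA (-1.29 ± 0.31), in DMSO (-1.55 ± 0.32) or over both treatments (-1.42 ± 0.22, adjusted p = 0.38). A missing call for a receptor thus does not show that it was unchanged. For SMARCD2 the authors' deposited tables list an adjusted p of 0.0073 in ATRA and 1.8e-21 in DMSO.

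In DMSO the same comparison concerned undifferentiated cells. SIGLEC10 was lower with both hairpins, at 8.54 and 8.87 CPM against 10.7 CPM in the control (-0.30 ± 0.11, 95% interval -0.56 to -0.03; unadjusted p = 0.031, adjusted p = 0.7). SIGLEC9 was at 0.813 and 1.21 CPM against 0.487 CPM in the control, 49 and 53 counts against 15 (1.03 ± 0.60, adjusted p = 0.76). CD33 was at 47.8 and 49.4 CPM against 52.3 CPM in the control (-0.11 ± 0.07, 95% interval -0.28 to 0.07), the opposite side from ATRA. SIGLEC1 lay on either side of its control, at 0.265 and 0.638 CPM against 0.454 CPM. SIGLEC5 had 0.10 (-0.21 to 0.41) and SIGLEC7 -0.04 (-0.53 to 0.46). Of the 6 receptors 0 were called, as were 0.0% of all genes by edgeR, with 868 genes at an unadjusted p under 0.05, while DESeq2 called 38 and limma-voom 0. Both hairpins lay below the control for CD33 and SIGLEC10, as they did for 34.9% of all genes, and above it for SIGLEC9, as for 35.0%.

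**Figure D5:**
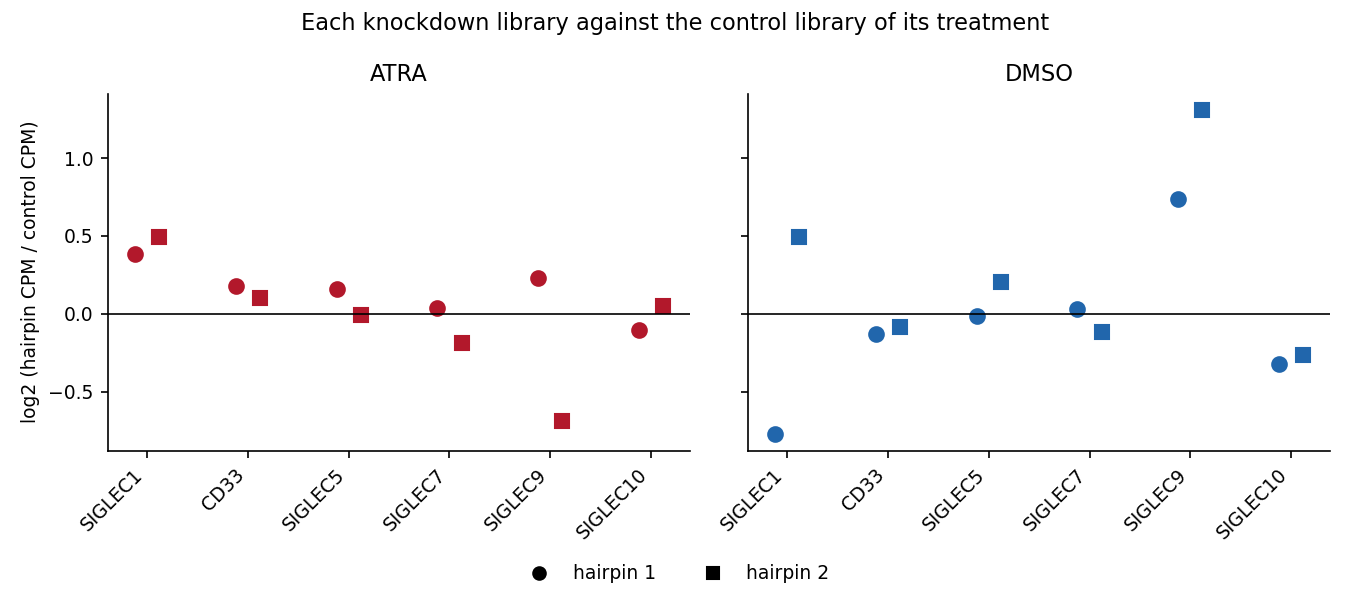
Log2 ratio of each knockdown library to the control library of the same treatment for the 6 receptors, ATRA left and DMSO right, circles for hairpin 1 and squares for hairpin 2. In ATRA both points of SIGLEC1 lie above 0 (0.38 and 0.49), and in DMSO they lie at -0.78 and 0.49 on 14 to 28 counts.

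Over both treatments together (4 knockdown against 2 control libraries), SIGLEC1 had a log2 fold change of 0.42 ± 0.12 (unadjusted p = 0.009, adjusted p = 0.51). That value rests on the ATRA libraries, since without the control in ATRA it was -0.10. The values of the other receptors lay between -0.13 for SIGLEC10 and 0.30 for SIGLEC9. Again 0 of the 6 receptors and 0.0% of all genes were called by edgeR, with 1003 genes at an unadjusted p under 0.05, while DESeq2 called 48 and limma-voom 0.

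The last comparison asked whether the ATRA response itself differed with knockdown. CD33 gave the smallest unadjusted p among the receptors. Its ratio of ATRA to DMSO was 1.29 with hairpin 1 and 1.19 with hairpin 2, against 1.04 in the control, a difference of 0.25 ± 0.11 on the log2 scale (95% interval 0.002 to 0.49; unadjusted p = 0.049, adjusted p = 0.62). For SIGLEC10 the ratios were 8.0 and 8.57 with the hairpins against 6.87 in the control (0.27 ± 0.14, adjusted p = 0.67). For SIGLEC5 they were 4.03 and 3.07 against 3.57, and for SIGLEC7 4.43 and 4.21 against 4.42. Of the 6 receptors 0 were called, against 0.0488% of all genes (6 genes). There were 979 genes at an unadjusted p under 0.05, and DESeq2 called 48 and limma-voom 2. Outside the 6, SIGLEC6 in ATRA stood at 0.356 and 0.352 of its DMSO level with the hairpins, against 0.713 in the control (-1.01 ± 0.26, unadjusted p = 0.0055, adjusted p = 0.42). No tested gene of the 7 lists was called in any knockdown comparison by edgeR without the hairpin term. The share of counts from run 1 lay between 70.6% and 80.7% in the knockdown libraries and at 53.1% and 54.6% in the controls, so run mix moved with knockdown, and its part in these differences was not tested beyond the values of single runs, 0.45 in run 1 and 0.37 in run 2 for SIGLEC1 in ATRA.

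The genes nearest in pattern to each receptor over the 6 libraries, by Euclidean distance between log2 CPM values centred on each gene's mean, differed from receptor to receptor. For SIGLEC1 they were NCF1 at a distance of 0.95, CCL2 at 1.05, BPI at 1.46, ASB2 at 1.495 and FGR at 1.56, each with an ATRA log2 fold change between 8.77 and 9.57. NCF1 has near-identical copies, so its value is uncertain. For CD33 they were JDP2 at 0.056, C18orf21, AGGF1, TAF12 and ZBTB48 at 0.075. For SIGLEC5 they were ADD3 at 0.14, PGAM4, NAGK, BAK1 and PTPRC at 0.16. For SIGLEC7 they included CSF3R at 0.12, ITPRIP, EIF1B and SASH3 at 0.16. For SIGLEC10 they included PLXNC1 at 0.22, CTSZ, SH3BP2 and C1orf204 at 0.29, and for SIGLEC9 LRIG1 at 0.54, C2orf16, PAPSS2, SLC2A14 and TLR10 at 0.63. NAGK encodes a kinase that salvages amino sugars, CSF3R the receptor for the granulocyte growth factor and PTPRC the leukocyte phosphatase CD45. Within the 6, SIGLEC5 and SIGLEC7 were closest at 0.47 and SIGLEC1 and CD33 farthest at 11.57.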

How the data were processed

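RNA-seq counts of 6 NB4 libraries were used. The submitters' processing notes name the build GRCh37.p13 and the tools STAR, bcl2fastq, DESeq2 and Picard 2.5.0, with no roles. How reads were assigned to genes is not stated. The authors deposited 1 table per treatment (12838 genes for ATRA, 12752 for DMSO) with whole-number counts per gene, not normalized, in 2 columns per library, taken as sequencing runs. The 12 normalized columns were not used. The authors' deposited tables also give a log2 fold change, a p-value and an adjusted p-value for knockdown against control.

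Runs were summed per library. Genes in both tables were filtered with filterByExpr, which removed none of 12301, scaled with TMM on the full table totals and tested with edgeR 4.0.16 (quasi-likelihood, Benjamini-Hochberg) in R 4.3.3. An additive fit of treatment and knockdown gave the ATRA and the overall knockdown comparison. A fit of 4 groups gave the rest, where each lone control is taken to vary as the knockdown libraries do. The standard error is the absolute log2 fold change over the square root of F. On simulated counts over 12301 genes, the ATRA comparison recovered 99% of 2-fold changes and the knockdown comparison in ATRA 86%. Those counts had the trended dispersion of the data and no difference between hairpins, so they say little of genes whose hairpins differ. SMARCD2, 2.44-fold lower with knockdown in ATRA, was not called in the real data. Library totals, DESeq2 1.42.0, limma-voom 3.58.1, no filter, single runs, the hairpin as a term and leaving out each library were tried. The planned fit for receptors listed in 1 table was not needed.

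Same-construct deviations in ATRA and DMSO correlated with r = 0.144 for hairpin 1, 0.218 for hairpin 2 and 0.104 for the control over all genes. Over genes of at least 10 CPM r was 0.186, 0.21 and 0.0782. By a bound of 0.1 over all genes the hairpin numbers were taken to pair the samples in the fit with a hairpin term. The labels do not tie them to the same transduced cells, so the main fits hold no such term and ignore any pairing. With it, SIGLEC9 lost its call for ATRA against DMSO and SIGLEC1 gained one for knockdown in ATRA.

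Exon lengths and shared 50-base windows came from GENCODE 29 on GRCh38, which is not the authors' annotation, and promoters from RefSeq (GRCh38.p14), with entries for 5 of the 6 receptors. The receptors, lists and tests were chosen with earlier results of these data known. Named genes were the 6 receptors, up to 4 genes per list with the largest called ATRA change, the 5 nearest in pattern to each receptor and SMARCD2; others are said to be named after their values were seen. A few genes this rule selects are not reported here.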

Additional observations from a re-analysis of the deposited data

How the results depend on the processing

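For ATRA against DMSO, SIGLEC1, SIGLEC5, SIGLEC7 and SIGLEC10 kept their direction and their call under all 13 alternatives each. CD33 lost its call in 2 of 13 and SIGLEC9 in 8 of 13, with the values given above, and the cause was not tested. The number of the 6 receptors called lay between 4 and 6 when 1 library was left out, and the number of all genes between 8314 and 8738. Without 1 library the log2 fold change lay between 0.18 and 0.31 for CD33 and between 0.62 and 1.24 for SIGLEC9.

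Counts of all genes called for knockdown depended on the method. DESeq2 called 48 over treatments, 38 in DMSO, 54 in ATRA and 48 for the difference in ATRA response. The replicate block (the hairpin as a term) called 10, 116, 348 and 129 in the same order, and 1 receptor, SIGLEC1 in ATRA (0.44). Beyond that call and the loss of SIGLEC9 for ATRA against DMSO, the pairing changed no call of a receptor. Run 2 alone called 1 over treatments, 3 in DMSO and 7 in ATRA, library totals called 1 over treatments and limma-voom 2 for the difference. Without 1 library the counts lay between 0 and 1 over treatments, 0 and 21 in DMSO, 0 and 1 in ATRA and 1 and 2 for the difference.

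Knockdown values near 0 changed sign. From run 1 alone SIGLEC7 was 0.0209 over treatments, 0.0017 in DMSO, 0.0318 in ATRA and 0.0302 for the difference, and from run 2 alone CD33 in DMSO was 0.0511. Without 1 library, values over treatments ranged from -0.10 to 0.45 for SIGLEC1, -0.11 to 0.14 for CD33, -0.11 to 0.0022 for SIGLEC7 and -0.15 to 1.03 for SIGLEC9. In DMSO they ranged from -0.76 to 0.50 for SIGLEC1, -0.0047 to 0.22 for SIGLEC5 and -0.10 to 0.0391 for SIGLEC7. In ATRA they ranged from -0.0101 to 0.16 for SIGLEC5, -0.19 to 0.0295 for SIGLEC7, -0.69 to 0.22 for SIGLEC9 and -0.11 to 0.0499 for SIGLEC10. For the difference they ranged from -0.0665 to 1.20 for SIGLEC1, -0.15 to 0.0804 for SIGLEC5 and -0.15 to 0.0587 for SIGLEC7. The thinnest values are those of SIGLEC9 throughout, at 15 to 97 counts per library, and of SIGLEC1 in DMSO, at 14 to 28.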
